A study of Mus musculus with 20 samples.

Results

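Subcutaneous adipose tissue of mice was compared between 4 arrays titled Glucose and 4 arrays titled Con, out of 20 arrays in the series. The members were chosen by their titles alone, GlucoseHyp and GlucoseNonHyp against ConHyp and ConNonHyp, with 2 arrays in each of the 4 groups. The title of the series names sleep apnea and the metabolism of glucose. Its other 12 arrays hold other tissues and were used only in setting the floor described below.

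All 4 groups came from mice 12 weeks old, and the labels name both C57BL-6J and C57BL-6J-Lep, a strain carrying a mutation of the leptin gene. The labels do not say which strain an array held, nor what Con and Glucose stand for, so the groups are named by these words only. GlucoseHyp and ConHyp mice breathed air whose oxygen fell to 5%, from 20.9%, over 30 s and was restored over 30 s, for 16 hours a day on 5 days. GlucoseNonHyp and ConNonHyp mice are given the same schedule of 30 s steps, for 16 hours a day on 5 days. Their oxygen is given as 20.9%, with no lower level. Arrays of a group are called 1 and 2 after the letters a and b in their titles. The titles end in s2 or s4, which the labels do not explain. GlucoseHyp 1, GlucoseNonHyp 1, ConHyp 1 and ConNonHyp 2 are s4, and GlucoseHyp 2, GlucoseNonHyp 2, ConHyp 2 and ConNonHyp 1 are s2. Nothing in the labels says that the arrays of a group came from separate animals, so p-values measure only the spread between these arrays, which may be technical. In lists of values below, the arrays follow the order Hyp 1, Hyp 2, NonHyp 1, NonHyp 2.

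White adipose tissue stores triglyceride in adipocytes, which also secrete hormones such as leptin and adiponectin, and it takes up or makes fatty acids under the control of insulin. Between the adipocytes lie vessels, fibroblasts and immune cells, above all macrophages. The subcutaneous depots of the mouse also hold lymph nodes, which are packed with B and T lymphocytes, and in some depots fat cells of the brown or beige kind, rich in mitochondria. A dissected piece of fat can carry along skin muscle or a node, and an array of bulk RNA reads them all together.

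The deposited values are linear intensities, 1 per probe set and array, for 12488 probe sets. The median per array ran from 265 to 294 and the share of values at or below 0 from 17.4% to 21.1%, with no split between Glucose and Con. Values under 97.7, the 20th percentile of all positive values, were set to it before taking log2, and that level (6.61 on the log2 scale) is called the floor. As a sign of RNA quality, Gapdh control signal at the 3' end over that at the 5' end was 0.802 to 0.903 on the Glucose arrays and 0.865 to 1.02 on the Con arrays. The same ratio for Actb was 0.756 to 1.27 on Glucose and 0.788 to 1.70 on Con. Over the probe sets tested, arrays of the same title word correlated at r = 0.843 to 0.923 and arrays of different words at r = 0.739 to 0.830. The number of arrays limits the precision throughout.

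The adipose label held against its white adipocyte markers. Adipoq, Lep, Fabp4, Retn, Lpl and Pparg, 6 of 6 white adipocyte markers measured, lay above the floor on all 8 arrays. Of 6 markers of skin and mammary epithelium, Krt5, Krt14 and Wap were at the floor on all 8. Csn2 was above it on all 8, at 125 to 311. Krt8 and Krt18 were above it on all but 1 Glucose array, at up to 368 and 215. Markers of other cell types did move with Glucose and Con. The summed intensity of 5 B cell markers was 1168 to 2046 on the Glucose arrays and 6909 to 10854 on the Con arrays. The sum of 7 T cell markers was 745 to 1202 on Glucose and 5089 to 7899 on Con, and that of 4 lymph node stroma markers 652 to 928 on Glucose and 3661 to 8067 on Con. Of these 16 markers, Cd22, Cd3e, Cd3g, Cd8a, Cd8b1, Glycam1 and Ltb were at the floor on all 4 Glucose arrays, and Cd79a on 3 of them. The sums of 5 macrophage markers overlapped, at 6647 to 12720 on Glucose and 7538 to 13850 on Con. So did those of 4 endothelial markers, at 5177 to 10828 on Glucose and 4859 to 8806 on Con. In bulk tissue, fewer cells of a type and less RNA per cell cannot be told apart.

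**Figure D1:**
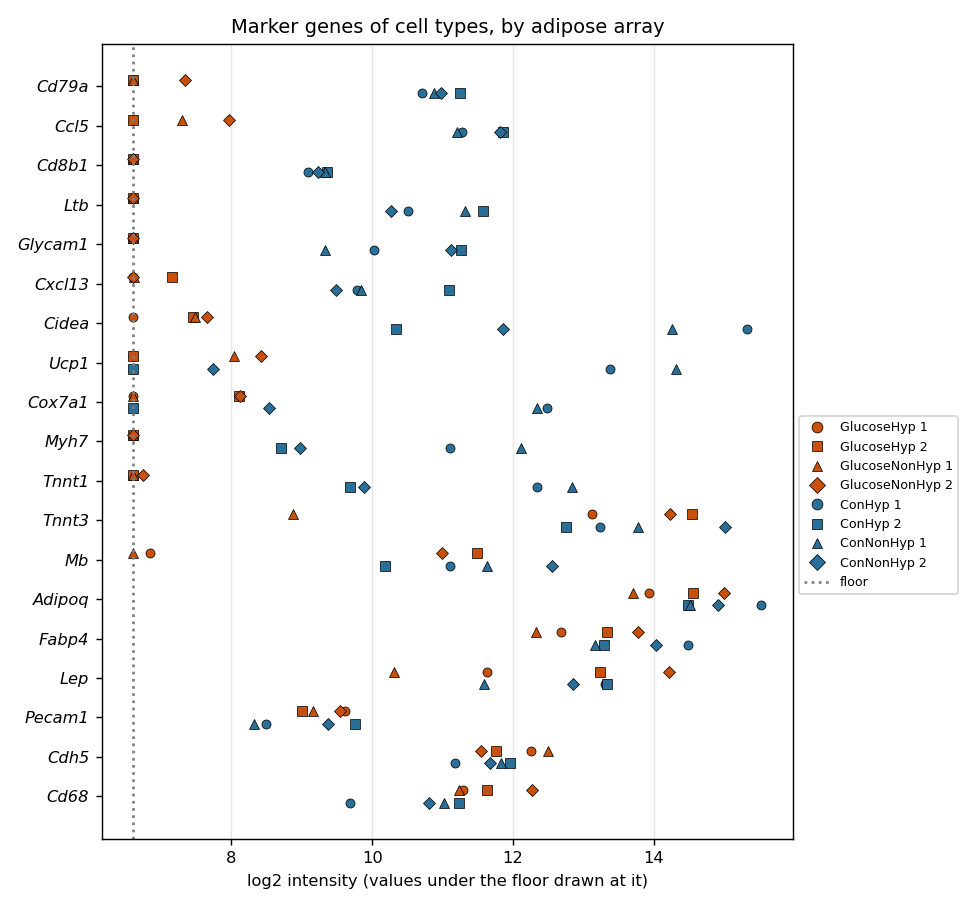
Log2 intensity of 19 marker genes (x axis) on each of the 8 adipose arrays, with the 4 Glucose arrays drawn in orange above the 4 Con arrays in blue in each row, a symbol per array and the floor as a dotted line. The lymphoid markers Cd79a, Ccl5, Cd8b1, Ltb, Glycam1 and Cxcl13 lie at or near the floor on Glucose and far above it on Con, the brown fat and slow muscle markers Cidea, Ucp1, Cox7a1, Myh7 and Tnnt1 are highest on the Con arrays numbered 1, and the adipocyte, endothelial and macrophage markers overlap.

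Glucose and Con differed at 636 of 7453 probe sets tested, which is 8.53% (limma with hypoxia as a block, Benjamini-Hochberg adjusted p of 0.05). On Glucose 347 were higher (4.66%) and 289 were lower (3.88%). The median log2 difference, Glucose minus Con, was 1.47 among the higher ones and -1.95 among the lower ones, against 0.04 over all probe sets tested. Differences of 4-fold or more were found at 83 of the higher and 133 of the lower probe sets. In 440 of the 636 all 8 arrays lay above the floor, so that the fold was measured on both sides. In 55, every array of 1 side lay at the floor and every array of the other above it, 14 higher and 41 lower on Glucose, and there the fold is a lower bound, written "at least". Probe sets were filtered by their mean level over the 8 arrays, so these 55 were tested only through the side above the floor. Their direction was thus fixed in advance, also where they count in the gene lists below. Where only some arrays of the lower side were at the floor, the log2 difference understates the true one. Glucose and Con arrays did not overlap at 1474 probe sets (19.8%), among them 623 of the 636.

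**Figure D2:**
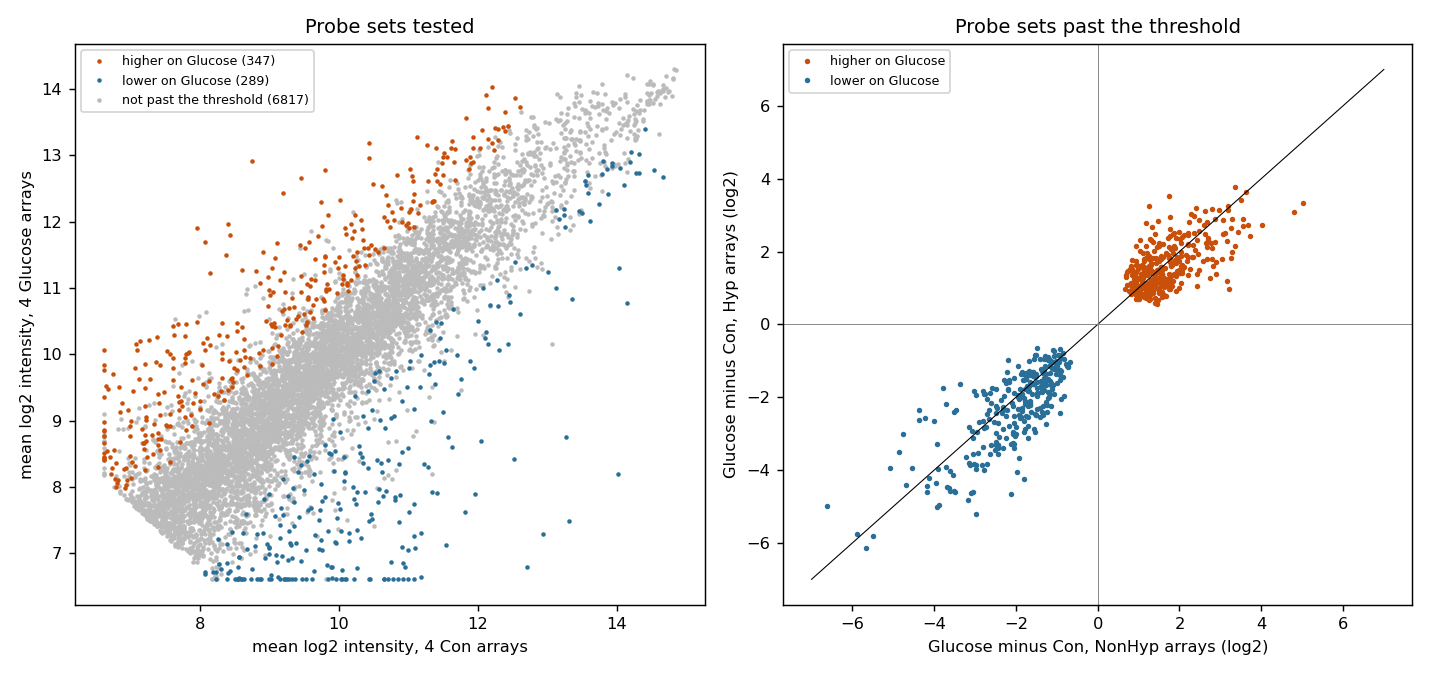
Left, mean log2 intensity of each of the 7453 probe sets tested on the 4 Glucose arrays (y axis) against that on the 4 Con arrays (x axis), with the 347 higher on Glucose in orange, the 289 lower in blue and the rest in grey. Right, for the 636 past the threshold, the Glucose minus Con difference within the Hyp arrays (y axis) against that within the NonHyp arrays (x axis, both log2), where all 636 lie in the quadrants of equal sign around the line of equality. The call rests on the mean of these differences, so equal signs were nearly fixed in advance.

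Among called genes measured on both sides without overlap, the highest on Glucose were Mest, Hpgd, Fmr1, Cdr2, Maoa, Npr3, Lpgat1, Pkp2, Slc6a13 and Rab31. Mest, an imprinted gene expressed from the paternal copy and known to go with the growth of fat cells, read 6534, 8887, 5764 and 10798 on the Glucose arrays, against 782, 726, 213 and 281 on the Con arrays. That is a log2 difference of 4.18 ± 0.39 (SE, adjusted p = 0.000594), and every Glucose array lay far above the highest Con array. Only Impact among the other 14 imprinted genes tested also passed, at 360, 299, 362 and 527 on Glucose, against 155, 172, 200 and 162 on Con (1.14 ± 0.23). Mest and Impact are 13.3% of that list, against 8.53% of all probe sets.

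Lpgat1, an acyltransferase of membrane phospholipids, read 8836, 11458, 7880 and 9389 on Glucose and 950, 2129, 1099 and 1634 on Con (2.75 ± 0.30, adjusted p = 0.0011). The other Lpgat1 probe set differed by 3.63. Pkp2, plakophilin 2 of the desmosome, read 3020, 3725, 3541 and 2843 on Glucose and 621, 790, 439 and 428 on Con (2.57 ± 0.24). Slc6a13, a transporter of the amino acid GABA, read 6174, 4850, 4141 and 5084 on Glucose and 857, 1124, 846 and 653 on Con (2.55 ± 0.23). In each of these genes the 4 Glucose arrays lay close together and well above every Con array, though absence of overlap was a condition of choice. Rab31 (2.53), a small GTPase of vesicle traffic, Pde7a (2.50), which breaks down cyclic AMP, Mpdz (2.45), a scaffold with many PDZ domains, Eya2 (2.33), a transcriptional coactivator, Rbpms (2.26), an RNA-binding protein, Ppic (2.26), a cyclophilin, and Ubd (2.17), a ubiquitin-like modifier, followed. Of the 20 highest genes 19 kept the call in each of 8 fits that left out 1 array, and Ubd kept it in 5 of them.

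Of the genes with a symbol, 7 passed with every Con array at the floor and every Glucose array above it. Fgf1, a fibroblast growth factor of adipose tissue, read 1003, 1091, 743 and 1653 on Glucose, at least 11-fold higher. Folh1, a peptidase of the cell surface, was at least 8.94-fold higher, and Bcat1, the cytosolic aminotransferase of branched-chain amino acids, at least 6.72-fold, with 474, 392, 973 and 1029 on Glucose. Vwa7 (at least 5.16-fold), Vhl (4.69), Gabrr2 (4.47) and Shroom3 (3.75) completed the group. The last 3 rest on unequal arrays: Vhl read 1423 on GlucoseNonHyp 2 and 273 to 358 on the other Glucose arrays, and these 3 genes passed in 3, 5 and 3 of the 8 fits without 1 array, with adjusted p up to 0.0723, 0.0532 and 0.0730.

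**Figure D3:**
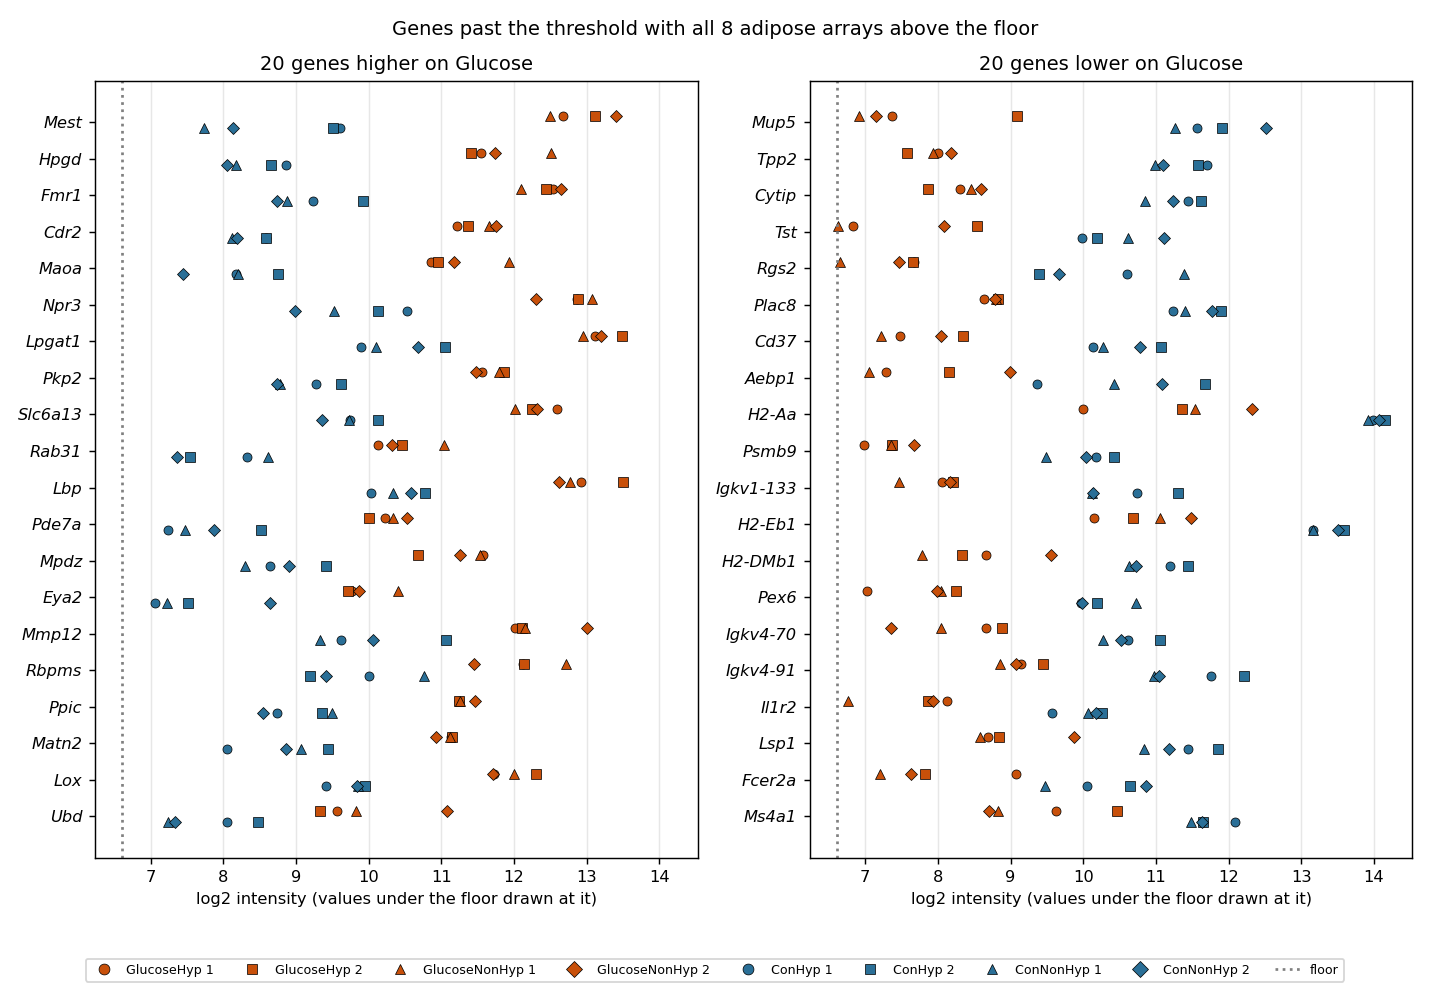
Log2 intensity (x axis) on each array of the 20 genes highest (left) and the 20 genes lowest (right) on Glucose among those past the threshold with all 8 arrays above the floor, the 4 Glucose arrays in orange above the 4 Con arrays in blue in each row, the floor as a dotted line. Only genes without overlap between Glucose and Con arrays could enter, so the separation of all 40 was a condition of choice. Mest spans 5764 to 10798 on Glucose and 213 to 782 on Con, and Tpp2 191 to 289 on Glucose and 2032 to 3331 on Con.

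Among the genes lowest on Glucose and measured on both sides, Tpp2, a large peptidase that trims the products of the proteasome, read 255, 191, 245 and 289 on Glucose and 3331, 3072, 2032 and 2188 on Con (-3.42 ± 0.26, adjusted p = 0.000256). Mup5, a major urinary protein, differed most (-4.19 ± 0.48), with 165, 544, 120 and 141 on Glucose and 3024, 3851, 2464 and 5849 on Con. Mup3, the other member tested, was lower by -3.49, and members of this family are near-identical, so their probe sets may read each other's RNA. Both genes were separate between Glucose and Con on every array, but absence of overlap was a condition for entering the 20 lowest genes. Tst, a mitochondrial sulfurtransferase, read 114, 370, 99 and 272 on Glucose, against 1010, 1171, 1572 and 2221 on Con (-2.96 ± 0.48). Pex6, needed for import into peroxisomes (-2.39), Rgs2, which damps signalling through G proteins (-2.90), and Aebp1, a repressor in preadipocytes (-2.77), fell too. Aebp1 kept its call in 5 of the 8 fits without 1 array, and the other 19 of the 20 in all of them. Most of the remaining genes of the 20 are known from lymphocytes or antigen presentation and are described next.

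B cell genes fell on Glucose. Of 13 measured members of the list, 11 passed and all 11 were lower (84.6%, against 3.88% of all probe sets). The median log2 difference was -2.29 over the 13, against 0.04 over all probe sets. Cd79a, the signalling chain of the B cell receptor, was at the floor on 3 Glucose arrays and at 162 on GlucoseNonHyp 2, against 1677, 2431, 1881 and 2020 on Con (-4.16 ± 0.26). Ms4a1, the surface protein CD20, stayed above the floor on Glucose, with 789, 1408, 452 and 415, against 4358, 3206, 2858 and 3170 on Con (-2.31 ± 0.30). Cd37, a tetraspanin of B cells, read 179, 326, 149 and 264 on Glucose and 1120, 2154, 1240 and 1766 on Con (-2.79 ± 0.34). Pou2af1, the coactivator that B cells need to form germinal centres, was at the floor on all Glucose arrays, at least 4.83-fold lower than on Con, where it read 430, 715, 469 and 344. Blk (-1.88) and Btk (-1.82), kinases downstream of the B cell receptor, Cd72 (at least 3.84-fold), a coreceptor, and Cxcr5 (-1.36), the receptor that draws B cells to follicles, were lower as well. Without 1 array at a time 10 to 12 members passed, and without both Con arrays numbered 1 9 did.

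Immunoglobulin transcripts, the product of B cells and plasma cells, were lower at 3 of 5 listed members (60%, against 3.88% of all probe sets). Igkv6-23, a variable segment of the kappa light chain, read 949, 428 and 190 on 3 Glucose arrays and lay at the floor on GlucoseNonHyp 2, against 22568, 18318, 12263 and 14946 on Con (-5.81 ± 0.43). Of 21 probe sets for variable segments, a group gathered after their values were seen, 18 were lower and none higher, against 3.88% lower of all probe sets. In 9 all 4 Glucose arrays were at the floor. Those 9 passed the filter on mean level only through their Con values and could only come out lower. Ighv14-2 was at least 11.2-fold, Igkv6-14 at least 10.1-fold and Igkv9-120 at least 9.40-fold lower on Glucose. Segments of a family are near-identical in sequence, so these probe sets are not independent. Jchain, which links polymeric antibodies, read 388, 269, 383 and 196 on Glucose and 1037, 1432, 807 and 1190 on Con (-1.88 ± 0.30). Ighg3, the constant region of an IgG class, was lower by -1.70 ± 0.40 and kept the call in 2 of the 8 fits without 1 array. The heavy chain of IgM gave split values. Of 6 Ighm probe sets 3 were lower, and the brightest read 11330, 13290, 5675 and 11727 on Glucose, against 13311, 17480, 7179 and 13729 on Con (-0.30 ± 0.32, adjusted p = 0.616).

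T and natural killer cell genes fell at 6 of 14 members (42.9%, against 3.88% of all probe sets) and rose at none, with a median of -1.26. Ccl5, a chemokine of activated T cells, was at the floor on both GlucoseHyp arrays and read 158 and 251 on the GlucoseNonHyp arrays, against 2488, 3724, 2370 and 3602 on Con (-4.42 ± 0.32). Cd52, a small glycoprotein of lymphocyte surfaces, read 1043, 1063, 1070 and 1104 on Glucose and 6766, 5780, 3700 and 4476 on Con (-2.24 ± 0.23). It was nearly level across the Glucose arrays. Cd8b1, a chain of the CD8 coreceptor, was at the floor on all Glucose arrays and read 543, 654, 643 and 599 on Con, at least 6.22-fold lower on Glucose. Thy1 read 186, 372 and 463 on 3 Glucose arrays and lay at the floor on GlucoseNonHyp 1, against 1527, 2280, 1269 and 2844 on Con (-2.99 ± 0.52). Cytip (-2.98), which binds the adhesion regulator cytohesin in lymphocytes, Plac8 (-2.81) and Lsp1 (-2.33), a leukocyte protein that binds actin, were among the 20 lowest of the genes above the floor on all 8 arrays.

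Genes of lymph node stroma and homing fell at 5 of 12 members (41.7%, against 3.88% of all probe sets), with none higher. Glycam1, the ligand on high endothelial venules that slows passing lymphocytes, was at the floor on all Glucose arrays and read 1047, 2455, 646 and 2231 on Con, at least 14.2-fold lower on Glucose. Cxcl13, the chemokine that forms B cell follicles, read 142 and 99 on GlucoseHyp 2 and GlucoseNonHyp 1 and lay at the floor on the other Glucose arrays, against 885, 2172, 915 and 719 on Con (-3.30 ± 0.33). Ltb, lymphotoxin beta, which lymphocytes use to keep that stroma in place, was at least 19.8-fold lower. Lyve1, a receptor of lymphatic endothelium, was lower by -2.20 ± 0.48 and kept the call in 3 of the 8 fits without 1 array. Vcam1, an adhesion molecule, was lower by its brightest probe set (-1.67), and its other probe sets gave 0.56 and 0.28 without passing. Madcam1, a homing ligand of gut-associated nodes, went the other way without passing, at 446, 428, 634 and 358 on Glucose and 275, 388, 356 and 133 on Con. The sums of lymphocyte markers given above moved beside them. The part of lymph node content in these differences was not tested.

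MHC class II genes, through which B cells, dendritic cells and macrophages show peptides to helper T cells, fell at 9 of 11 members and rose at none. The 9 are 81.8% of the list, against 3.88% of all probe sets, and the list median was -2.46. H2-Aa, the alpha chain of the I-A molecule, read 1019, 2620, 2984 and 5147 on Glucose and 16246, 18234, 15513 and 17148 on Con (-2.73 ± 0.40, adjusted p = 0.00459). H2-Eb1, the beta chain of I-E, read 1134, 1646, 2128 and 2855 on Glucose and 9136, 12340, 9139 and 11596 on Con (-2.51 ± 0.29). The Glucose arrays ran in the same order for both chains, lowest on GlucoseHyp 1 and highest on GlucoseNonHyp 2, while the Con arrays lay within a narrow band. H2-Ab1, the beta chain of I-A, lay at the floor on GlucoseHyp 2 and read 276, 430 and 1209 on the other Glucose arrays, against 4987, 7521, 5162 and 6165 on Con (-4.09 ± 0.57).

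The chaperones of this pathway fell together with the chains they load. Cd74, the invariant chain, read 6098, 5704, 7916 and 8910 on Glucose and 22100, 22672, 21037 and 30907 on Con (-1.76 ± 0.22). H2-DMb1, a subunit of the peptide exchanger H2-M, read 406, 322, 220 and 755 on Glucose and 2344, 2792, 1588 and 1702 on Con (-2.42 ± 0.39). H2-Oa (-2.46) and H2-Ob (at least 4.63-fold lower) form H2-O, which restrains H2-M in B cells, and H2-DMa (-3.86) and H2-DMb2 (at least 5.82-fold) complete the set. Without 1 array at a time 9 to 10 of the 11 passed, and without both Con arrays numbered 1 7 did.

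MHC class II promoters share a conserved upstream module whose Y box, an inverted CCAAT element, is bound by the factor NF-Y. The letters CTGATTGG were searched on both strands of the 300 bases around each gene start in the RefSeq promoter table (GRCm38.p6). They occur in 1346 of 32851 promoters (4.10%). Of the 7 lower MHC class II genes with an entry in that table, 3 hold them: H2-Aa at position -51 from the start (chr17:34287774-34288073, minus strand), H2-Eb1 at -62 (chr17:34305617-34305916, plus strand) and H2-Oa at -46 (chr17:34092129-34092428, plus strand). A match is a description of the letters, not a site shown to be bound here. The windows are given so that the place of the element can be compared between these genes that fell together, 5′ to 3′ on the gene's strand with the matched letters in capitals.
H2-Aa: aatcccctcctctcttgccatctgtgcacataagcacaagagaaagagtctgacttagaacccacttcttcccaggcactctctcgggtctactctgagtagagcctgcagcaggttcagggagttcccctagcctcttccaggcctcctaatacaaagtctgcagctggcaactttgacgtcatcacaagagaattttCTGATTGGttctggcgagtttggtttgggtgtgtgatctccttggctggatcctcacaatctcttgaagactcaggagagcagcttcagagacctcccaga
H2-Eb1: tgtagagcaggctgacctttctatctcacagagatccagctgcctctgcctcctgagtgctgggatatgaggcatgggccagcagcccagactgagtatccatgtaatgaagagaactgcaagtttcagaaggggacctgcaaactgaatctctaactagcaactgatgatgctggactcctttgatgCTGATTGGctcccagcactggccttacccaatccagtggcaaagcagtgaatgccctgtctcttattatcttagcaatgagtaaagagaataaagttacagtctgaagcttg
H2-Oa: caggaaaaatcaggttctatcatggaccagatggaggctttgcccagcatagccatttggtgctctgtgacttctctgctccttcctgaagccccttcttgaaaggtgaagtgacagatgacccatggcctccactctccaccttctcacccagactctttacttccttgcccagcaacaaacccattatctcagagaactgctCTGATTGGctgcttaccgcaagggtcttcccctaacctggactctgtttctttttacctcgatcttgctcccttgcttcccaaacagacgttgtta

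The class I pathway, by which nearly all cells show peptides to CD8 T cells, moved less. Of 12 members tested 4 were lower (33.3%, against 3.88% of all probe sets) and none higher, with a median of -0.87. Psmb9, a subunit of the immunoproteasome, read 126, 164, 164 and 204 on Glucose and 1155, 1375, 715 and 1048 on Con (-2.69 ± 0.28). Psmb8, another subunit, read 1246, 595, 1486 and 1186 on Glucose and 2982, 3464, 2574 and 3004 on Con (-1.48 ± 0.31). Tap1, which carries peptides into the endoplasmic reticulum, was lower by -1.22 ± 0.27, with 823 to 946 on Glucose and 1670 to 3354 on Con. Psmb9 and Tap1 lie head to head on chromosome 17, and their RefSeq promoter windows share 275 bases. H2-Q10, a class I protein best known as secreted from liver, was lower by -1.85 ± 0.30. Psmb8 and Tap1 kept their calls in 6 and 4 of the 8 fits without 1 array. Without both Con arrays numbered 1 a single member passed. Of 39 proteasome genes, Psmb8 and Psmb9 were the only 2 to pass (5.13%, against 8.53% of all probe sets), at a list median of 0.12. Of 15 interferon response genes 2 were lower (13.3%, against 3.88% of all probe sets) and none higher, with a median of -0.61. The 2 were Irf7 (-1.20 ± 0.28) and Ifit3 (-1.04 ± 0.23). They kept their calls in 2 and 1 of the 8 fits without 1 array, where 0 to 2 of the list passed, and without both Con arrays numbered 1 0 did.

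Macrophage genes did not move as a block, with 3 of 28 lower, 2 higher and a median of -0.66. The calls are 17.9% of that list, against 8.53% of all probe sets. Itgax, the integrin CD11c, read 714, 560, 1274 and 631 on Glucose and 183, 183, 308 and 461 on Con (1.52 ± 0.30). Mmp12, the macrophage elastase, read 4152, 4436, 4569 and 8187 on Glucose and 785, 2143, 644 and 1066 on Con (2.31 ± 0.42), and its other probe set also passed, at 2.38. On the lower side, Ccl8, a monocyte chemokine, read 307, 385, 148 and 658 on Glucose and 955, 1671, 1520 and 2465 on Con (-2.25 ± 0.47). C1qa, a chain of the complement initiator C1q, was lower by -1.56 ± 0.36. Marco, a scavenger receptor, was at least 3.41-fold lower. Of the general markers, none passed: Cd68 had a difference of 0.91, Adgre1 -0.27, Lyz2 -0.74 and Csf1r -0.88, and Itgam was too dim to be tested. Itgax, Ccl8 and C1qa kept their calls in 4, 4 and 1 of the 8 fits without 1 array. Mast cell genes were lower at 2 of 4 members (50%, against 3.88% of all probe sets). These were Cma1, a chymase, with 550, 677, 437 and 682 on Glucose and 1798, 3001, 1691 and 2392 on Con (-1.90 ± 0.27), and Cpa3 (-1.31 ± 0.33). Cma1 kept its call in all 8 fits without 1 array and Cpa3 in 1. Of 24 cytokine and chemokine genes 2 were higher, Ccl3 (1.25 ± 0.24) and Il1rn, the interleukin 1 receptor antagonist (1.22 ± 0.29), and 5 lower. Together they are 29.2% of the list, against 8.53% of all probe sets. The lower ones include Il1r2, the decoy receptor of interleukin 1, with 280, 232, 109 and 243 on Glucose and 758, 1224, 1070 and 1157 on Con (-2.35 ± 0.34).

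**Figure D4:**
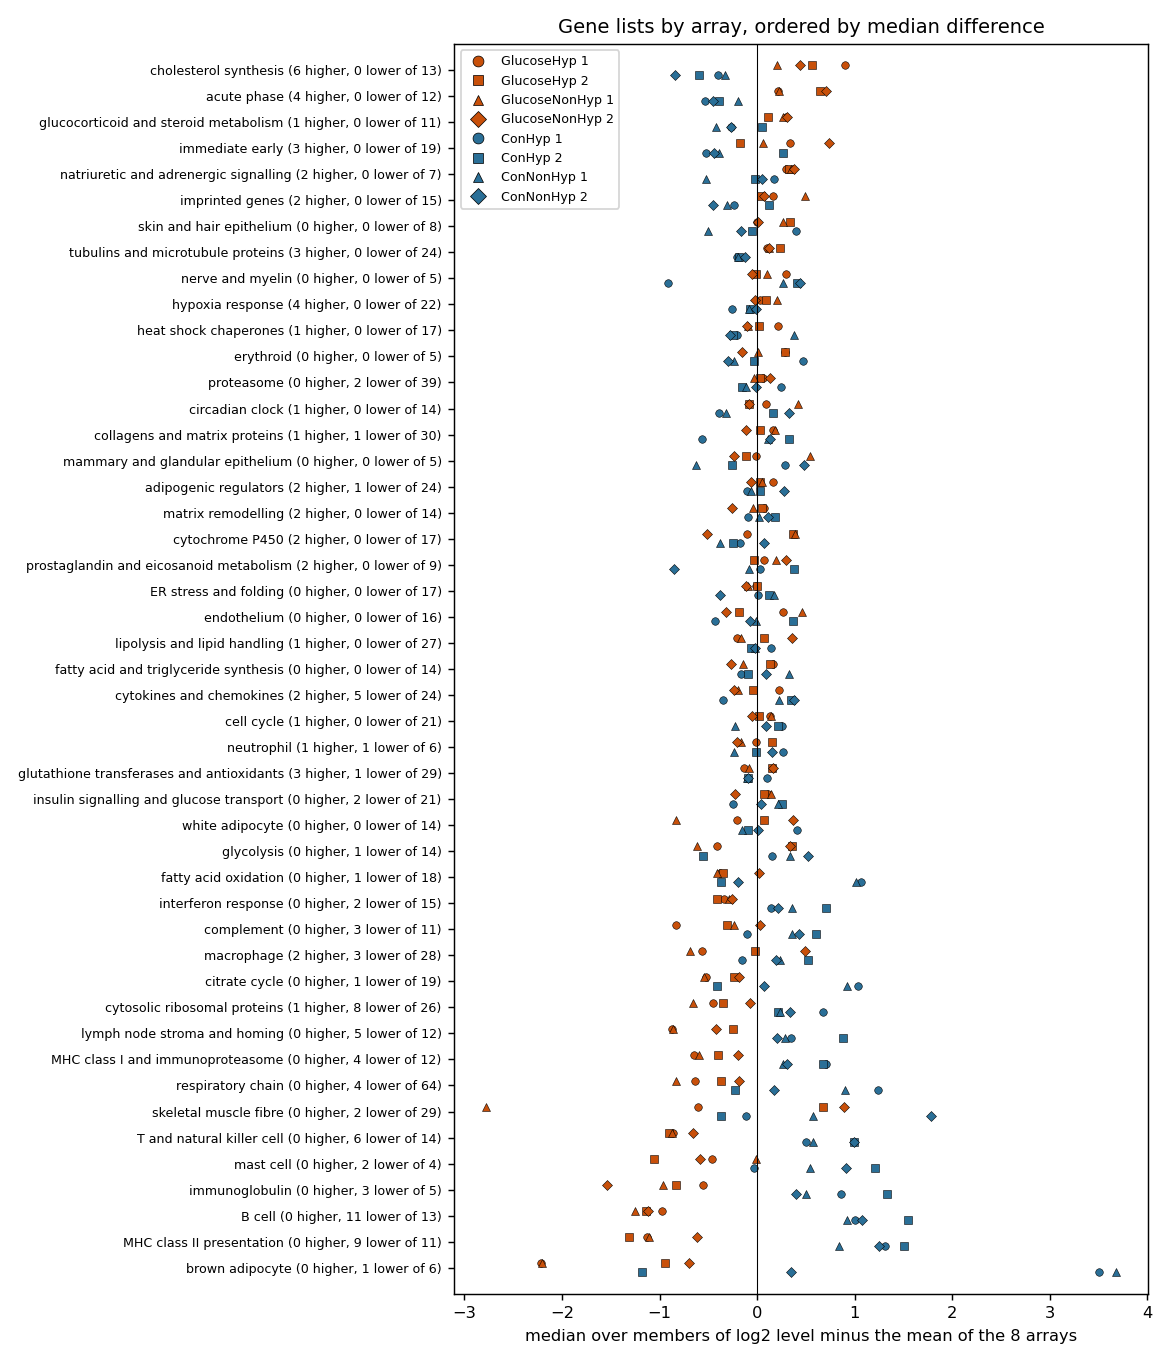
Median over the members of each gene list (rows, ordered by median Glucose minus Con difference) of the log2 level minus the mean of the 8 arrays (x axis), with the 4 Glucose arrays in orange above the 4 Con arrays in blue; the numbers beside each name count members past the threshold of those tested. The B cell list lies between -1.25 and -0.97 on Glucose and between 0.92 and 1.55 on Con, the cholesterol synthesis list is reversed, and the brown adipocyte list sets the Con arrays numbered 1 apart from all others.

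Adipocyte genes themselves did not pass. Of 14 white adipocyte genes 0 were called (limma, 1 at an unadjusted p under 0.05), against 8.53% of all probe sets, and the median was -0.41. Cd36, the fatty acid translocase, came nearest with 2326, 2390, 2808 and 3380 on Glucose and 2002, 1509, 1941 and 1642 on Con (0.61 ± 0.22, adjusted p = 0.127). Adipoq, adiponectin, read 15519, 24118, 13274 and 32470 on Glucose and 47113, 22844, 23358 and 30807 on Con (-0.57 ± 0.37, adjusted p = 0.39). After quantile normalization its log2 difference was 0.06. Among the Glucose arrays, those numbered 1 were the lowest in Adipoq, Fabp4 and Lep, and Glucose and Con overlapped in all 3.

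Lep, the gene of leptin, gave different answers by probe set. Its brightest probe set read 3177, 9637, 1267 and 19002 on Glucose and 10128, 10313, 3069 and 7379 on Con (-0.42 ± 0.79, adjusted p = 0.797). The other read 6305, 13010, 6428 and 18393 on Glucose and 2951, 4011, 1197 and 1773 on Con, with no overlap (2.15 ± 0.47, adjusted p = 0.0241). Both place GlucoseNonHyp 2 highest of the 8 arrays. The part of the transcript that each reads was not looked up here.

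Cholesterol synthesis genes rose on Glucose at 6 of 13 members (46.2%, against 4.66% of all probe sets) and fell at none, with a median of 1.06. In pathway order, Hmgcs1, which makes HMG-CoA, an early precursor, read 9153, 9205, 8384 and 8796 on Glucose and 3700, 2340, 3367 and 1811 on Con (1.72 ± 0.27, adjusted p = 0.00614). Idi1, which isomerises the isoprene unit, read 979, 688, 570 and 741 on Glucose and 474, 329, 365 and 264 on Con (1.06 ± 0.25). Lss, which closes the sterol rings, read 321, 322, 277 and 335 on Glucose and 113, 191 and 104 on 3 Con arrays, with ConHyp 1 at the floor (1.36 ± 0.26). The largest differences lay in later steps. Msmo1, which removes methyl groups from the ring, was higher by 2.28 ± 0.25, and Sc5d, which makes a late double bond, by 3.08 ± 0.29. Nsdhl, which acts with Msmo1, read 2007, 1434, 1355 and 1376 on Glucose and 749, 660, 756 and 569 on Con (1.16 ± 0.23).

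Members that did not pass include Sqle at 1.49, Cyp51 at 0.94 and Fdps at 0.84, and Fdft1 at -1.15. Glucose and Con arrays did not overlap at 10 of the 13, against 19.8% of all probe sets tested. Without 1 array at a time 3 to 7 members passed, lowest at 3 without GlucoseHyp 1 and 4 without GlucoseHyp 2, and without both Con arrays numbered 1 5 did. Genes of this pathway are known targets of the factor SREBP-2 through sterol elements near their starts. The letters TCACNCCAC were searched on both strands in the same promoter windows and occur in 408 of 32851 (1.24%). Of the 6 genes that rose, Hmgcs1 alone holds them, at position -137 (chr13:119690101-119690400, plus strand, GRCm38.p6). Its window is printed because it alone of the 6 holds the element, shown in capitals.
Hmgcs1: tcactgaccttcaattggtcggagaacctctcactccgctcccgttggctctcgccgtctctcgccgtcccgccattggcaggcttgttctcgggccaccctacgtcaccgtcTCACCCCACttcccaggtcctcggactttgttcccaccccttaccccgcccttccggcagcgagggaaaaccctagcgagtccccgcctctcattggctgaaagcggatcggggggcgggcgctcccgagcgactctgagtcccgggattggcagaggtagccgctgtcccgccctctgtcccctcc

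Fatty acid and triglyceride synthesis, in contrast, gave 0 calls among 14 genes (limma, 5 at an unadjusted p under 0.05), against 8.53% of all probe sets. The median was -0.08. Fasn, fatty acid synthase, read 10551, 15764, 7388 and 7646 on Glucose and 29167, 15232, 16484 and 20560 on Con (-1.0 ± 0.29, adjusted p = 0.0725). Me1, malic enzyme, read 9361, 10285, 6862 and 9521 on Glucose and 3499, 3483, 5867 and 5944 on Con (0.97 ± 0.27, adjusted p = 0.0655). The best supported differences of this list thus had opposite signs, and neither passed. Of 21 genes of insulin signalling and glucose transport 2 passed, which at 9.52% is near the 8.53% of all probe sets. Both were lower: Pck1, which feeds glycerol synthesis in fat, with 5578, 4646, 5330 and 6560 on Glucose and 26394, 11365, 10499 and 15955 on Con (-1.45 ± 0.33), and Igfbp6 (-1.57 ± 0.32). Each kept its call in 4 of the 8 fits without 1 array.

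Genes of mitochondrial energy production mostly had negative differences, and few passed. Of 64 respiratory chain genes 61 had negative differences, at a median of -1.01, and 4 were lower past the threshold (6.25%, against 3.88% of all probe sets): Ndufa6, Sdhb, Cox7b and Atp5e. These kept their calls in 3, 1, 3 and 3 of the 8 fits without 1 array. Of 19 citrate cycle genes 1 was lower (5.26%), as was 1 of 18 fatty acid oxidation genes (5.56%), both near the 3.88% of all probe sets. Cox7b, a subunit of cytochrome oxidase, read 990, 1367, 588 and 2167 on Glucose and 9794, 3538, 8213 and 3332 on Con (-2.28 ± 0.51). Sdhb, of complex II, read 3540, 4356, 4144 and 4541 on Glucose and 26388, 6561, 15383 and 9519 on Con (-1.61 ± 0.42). ConHyp 1 and ConNonHyp 1 were the highest arrays of both genes. Without those 2 arrays the list's median was -0.44 with 0 called. Without 1 array at a time 0 to 24 members were lower, with 24 without ConHyp 2, 1 without GlucoseHyp 1 and 0 without GlucoseHyp 2, GlucoseNonHyp 1, ConHyp 1 or ConNonHyp 1. Citrate cycle genes had a median of -0.72 and fatty acid oxidation genes -0.57, which became -0.13 and -0.08 without both Con arrays numbered 1. Eci1, an isomerase of fatty acid oxidation, read 1661, 2001, 1829 and 2884 on Glucose and 16806, 4882, 14411 and 5391 on Con (-2.13 ± 0.46), and kept its call in 4 of the 8 fits.

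Markers of brown fat stood on the same arrays. Ucp1, the uncoupling protein that defines brown fat cells, read 10666 on ConHyp 1 and 20246 on ConNonHyp 1, while on the Con arrays numbered 2 it read 215 on ConNonHyp 2 and lay at the floor on ConHyp 2. On Glucose it read 264 and 342 on the NonHyp arrays and lay at the floor on the Hyp arrays. Cox8b, a cytochrome oxidase subunit of brown fat and muscle, read 847, 1824, 619 and 1741 on Glucose and 26697, 2039, 18129 and 5555 on Con (-2.92 ± 0.80, adjusted p = 0.0601). Of 6 brown adipocyte genes Cidea, a lipid droplet protein, alone passed (16.7%, against 8.53% of all probe sets). It read 175, 179 and 201 on 3 Glucose arrays and lay at the floor on GlucoseHyp 1, against 40893, 1301, 19643 and 3705 on Con (-5.65 ± 0.98), so that even the Con arrays numbered 2 lay above every Glucose array. The list's median was -2.77, and -0.64 without both Con arrays numbered 1. The part of brown fat content in the mitochondrial differences was not tested.

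Slow muscle genes followed the same pair of arrays. Myh7, the slow myosin heavy chain, was at the floor on all Glucose arrays and read 2197, 419, 4407 and 503 on Con, at least 12.2-fold lower on Glucose. Tnnt1, slow troponin T, read 108 on GlucoseNonHyp 2, lay at the floor on the other Glucose arrays and read 5163, 827, 7321 and 949 on Con (-4.54 ± 0.71). Genes of fast fibres followed another pattern. Tnnt3, fast troponin T, read 8937, 23792, 470 and 19207 on Glucose and 9648, 6910, 13957 and 33011 on Con, with GlucoseNonHyp 1 far under the rest. All 29 muscle genes had negative differences, at a median of -1.01, but without GlucoseNonHyp 1 the median was 0.01. The 2 lower past the threshold are 6.9% of them, against 3.88% of all probe sets. The summed intensity of 6 muscle markers was 11240 to 62453 on Glucose and 29591 to 82467 on Con, and its part in these differences was not tested.

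Cytosolic ribosomal protein genes were lower at 8 of 26 members and higher at 1, together 34.6%, against 8.53% of all probe sets. The median was -0.74, with no overlap between the per-array medians of Glucose and Con. Rps24 read 6941, 8422, 6983 and 8451 on Glucose and 21928, 15496, 17066 and 21605 on Con (-1.30 ± 0.23). Rps19 read 6287, 5202, 4603 and 6252 on Glucose and 14915, 11544, 11976 and 11238 on Con (-1.16 ± 0.22). The exception was Rpl39l, a testis-rich copy of a ribosomal gene, at 1.52 ± 0.35, which kept its call in 1 of the 8 fits without 1 array. Without 1 array at a time 1 to 9 members were lower, with 1 of them left without GlucoseHyp 2 or without GlucoseNonHyp 1, and without both Con arrays numbered 1 0 were, with a median of -0.72. A weaker probe set of Rps24 gave 0.06 and of Rpl19 0.11, neither past the threshold, and processed copies of these genes are many.

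Acute phase genes rose at 4 of 12 members (33.3%, against 4.66% of all probe sets) and fell at none, with a median of 0.95. Of the 12 differences 9 were positive and 3 negative. Without 1 array at a time 3 to 4 members were higher and 0 to 1 lower. Cp, ceruloplasmin, ran from -1.53 to -1.01 in these fits and was lower past the threshold in 1 of the 8. Lbp, which hands bacterial lipopolysaccharide to its receptor, read 7731, 11636, 7016 and 6281 on Glucose and 1052, 1747, 1297 and 1537 on Con (2.52 ± 0.27, adjusted p = 0.00102). Saa3, the serum amyloid A of fat and macrophages, read 656, 1096, 691 and 559 on Glucose and 165 and 107 on the Con arrays numbered 1, with those numbered 2 at the floor (2.67 ± 0.27). Serpina3n, a protease inhibitor, read 13060, 21415, 10888 and 18566 on Glucose and 3267, 6625, 3564 and 4993 on Con (1.80 ± 0.33). These 3 kept their calls in all 8 fits without 1 array. Lcn2, lipocalin 2, which binds bacterial siderophores, was higher by 2.01 ± 0.48 and kept the call in 2 of them. Complement genes were lower at 3 of 11 members (27.3%, against 3.88% of all probe sets). These were C1qa, C2 (-1.48 ± 0.31) and Cfp, properdin (-1.71 ± 0.36), which kept their calls in 1, 4 and 4 of the 8 fits. The list count was 0 to 3 without 1 array at a time, with 0 without GlucoseHyp 1, GlucoseNonHyp 1 or ConNonHyp 1, and without both Con arrays numbered 1 a single member did.

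Signalling and matrix genes gave single large differences in place of group shifts. Npr3, the clearance receptor that removes natriuretic peptides, read 7471, 7553, 8597 and 5032 on Glucose and 1483, 1119, 733 and 509 on Con (2.99 ± 0.30), and all 3 of its probe sets passed. Maoa, which breaks down noradrenaline, read 1859, 1980, 3919 and 2319 on Glucose and 290, 433, 294 and 174 on Con (3.09 ± 0.36). These were the only 2 of 7 natriuretic and adrenergic genes to pass (28.6%, against 8.53% of all probe sets). Hpgd, which inactivates prostaglandins, read 2992, 2718, 5831 and 3425 on Glucose and 466, 402, 289 and 265 on Con (3.37 ± 0.32). Ptger3, a receptor for prostaglandin E2 that curbs lipolysis in fat cells, read 1487, 1371, 954 and 925 on Glucose and 301, 256, 296 and 208 on Con (2.14 ± 0.23). They were the only calls among 9 prostaglandin genes (22.2%, against 8.53% of all probe sets).

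Lox, which crosslinks collagen, read 3402, 5059, 4085 and 3347 on Glucose and 680, 985, 922 and 919 on Con (2.17 ± 0.25), and its other probe set gave 3.57. Matn2, a matrix filament protein, read 2246, 2258, 2224 and 1950 on Glucose and 266, 697, 538 and 467 on Con (2.22 ± 0.31). Of 30 collagens and matrix proteins 1 was higher, Nid2 of the basement membrane (1.85 ± 0.38), and 1 lower, Col1a2 of fibrillar collagen, with 4376, 3129, 4330 and 3748 on Glucose and 4594, 12110, 13595 and 12223 on Con (-1.34 ± 0.34). Both together are 6.67% of the list, under the 8.53% of all probe sets. ConHyp 1 lay far under the other Con arrays in Col1a2, which kept its call in 1 of the 8 fits without 1 array. Ccn1 (2.42 ± 0.48) and Ccn2 (2.50 ± 0.33), matrix signals induced by stretch and growth factors, and Klf6 (1.19 ± 0.27) were the 3 higher of 19 immediate early genes. They are 15.8% of that list, against 4.66% of all probe sets. Nid2, Ccn1 and Klf6 kept their calls in 4, 6 and 2 of the 8 fits, and Ccn2 in all 8.

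Genes of cell growth and defence gave further single calls. Cdkn1a, the cell cycle inhibitor p21, read 4175, 4850, 3371 and 3139 on Glucose and 887, 1001, 1746 and 921 on Con (1.81 ± 0.30) and was the only call among 21 cell cycle genes. That is 4.76% of the list, under the 8.53% of all probe sets. Among 24 adipogenic regulators, Id2 fell, with 585, 525, 525 and 446 on Glucose and 1296, 1451, 2082 and 1446 on Con (-1.58 ± 0.24), whereas Id3 (1.06 ± 0.25) and the BMP receptor Bmpr1a (1.78 ± 0.33) rose. The 3 calls are 12.5% of that list, against 8.53% of all probe sets. Of these 3, Id3 kept its call in 1 of the 8 fits without 1 array and the others in all 8. Gpx3, the secreted glutathione peroxidase, read 6167, 7562, 5104 and 7516 on Glucose and 41535, 19527, 20666 and 27163 on Con (-2.0 ± 0.30). In the same list of 29, Gsta3 (1.47 ± 0.24), Gclm (1.02 ± 0.23) and Gstm2 (0.98 ± 0.25), which attach or make glutathione, were higher. With Gpx3 they are 13.8% of that list, against 8.53% of all probe sets. Gpx3 and Gsta3 kept their calls in all 8 fits without 1 array, Gclm in 2 and Gstm2 in 1. Without 1 array at a time 1 to 2 of the list were higher, and 0 with ConHyp 1 and ConNonHyp 1 left out together. Cyp4b1, a P450 enzyme of fatty acids and foreign compounds, read 8385, 7558, 9939 and 9659 on Glucose and 3942, 4248, 3522 and 3974 on Con (1.17 ± 0.21).

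Of hypoxia response genes 4 of 22 were higher on Glucose (18.2%, against 4.66% of all probe sets) and none lower. The median was 0.14, against 0.04 over all probe sets. Without 1 array at a time 1 to 3 of the list were higher and 0 to 1 lower, and without both Con arrays numbered 1 a single member was higher. Hif1a, the oxygen-regulated subunit of the hypoxia-inducible factor, read 8423, 6604, 7280 and 6270 on Glucose and 3336, 4079, 3125 and 4575 on Con (0.93 ± 0.23, adjusted p = 0.0441). P4ha2, a collagen prolyl hydroxylase, was higher by 0.92 ± 0.23, and Vhl and Lox are given above. Hif1a, P4ha2 and Vhl kept their calls in 1, 1 and 3 of the 8 fits without 1 array.

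Whether the Glucose minus Con difference depended on hypoxia was tested with the interaction term. In limma 0 of 7453 probe sets passed, which is 0%, 246 had an unadjusted p under 0.05, and the smallest adjusted p was 0.999. All 636 probe sets past the threshold had the same sign within the Hyp and within the NonHyp arrays. They were called on the mean of those differences in these same arrays, so equal signs were nearly fixed in advance. The smallest unadjusted p belonged to Grk6, Hoxc6, Sac3d1, Bysl and Srsf4. Hoxc6, a positional homeobox gene, read 1877 and 1701 on GlucoseHyp and 355 and 504 on ConHyp, against 694 and 540 on GlucoseNonHyp and 833 and 757 on ConNonHyp. Mest differed by 3.34 within Hyp and by 5.01 within NonHyp, which did not pass (adjusted p = 0.999), and a p of that size does not show that the effects were equal.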

How the data were processed

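RNA of 8 subcutaneous adipose samples was read on 8 arrays. The authors deposited 1 linear intensity per probe set and array, and the sources used here give neither the probe summary nor the scaling. Of 12488 probe sets 66 are platform controls and were left out. Of the other 12422, 10833 carry 1 gene symbol, 396 several and 1193 none, and only probe sets with 1 symbol were named. A gene with several probe sets is shown by its brightest probe set on average.

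Intensities under 97.7 were set to that floor and taken to log2, with the deposited scaling kept. The 7453 probe sets with a mean above the 40th percentile were fitted two-sided by lmFit and eBayes of limma 3.58.1 (R 4.3.3) with Glucose against Con and hypoxia as terms and 5 residual degrees of freedom. P-values were adjusted over all 7453. The interaction was tested on the 4 group means. The scripts were tested on simulated data. Precision rests on the number of arrays.

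Named are the 20 highest and 20 lowest called genes above the floor on all arrays and without overlap between Glucose and Con. Further named are up to 10 each way with 1 side at the floor and up to 5 members of a list by p. The markers and 5 genes of the interaction were added. Genes named outside this rule were chosen after their values were seen. The comparison and the gene lists were chosen with earlier results of these data known, so lists are described by counts and medians and not tested.

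Same-numbered Glucose and Con arrays did not deviate together (r = -0.05 between GlucoseHyp 1 and ConHyp 1, -0.10 between GlucoseNonHyp 1 and ConNonHyp 1), so numbers were not used as pairs. Arrays of equal title word and number did (r = 0.41 between GlucoseHyp 1 and GlucoseNonHyp 1, 0.18 between ConHyp 1 and ConNonHyp 1), and a random block for these was run as an alternative. The first pair are both s4, whereas ConHyp 1 is s4 and ConNonHyp 1 is s2. Alternatives varied the floor, filter, scaling, blocks and arrays included.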

Additional observations from a re-analysis of the deposited data

Results flagged for a closer look

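Of 182 sets of 4 arrays checked, 10 held 1 array far from the other 3, and chance gives about 1 in 20. GlucoseNonHyp 2 was the array set apart in 5 of them. Mmp12 stood at 13.00 on the log2 scale there (8187 in intensity), above the other Glucose arrays, as did Ppic at 11.47. Matn2 stood below the others at 10.93. The T and natural killer cell list had a median of -0.66 against the mean of the 8 arrays on GlucoseNonHyp 2, and the fatty acid oxidation list 0.018, both above the other Glucose arrays. In the T and natural killer cell list that is nearer to the Con arrays. In the fatty acid oxidation list the Con arrays ran from -0.37 to 1.06 and overlapped Glucose. On GlucoseHyp 2 the tubulin list stood at 0.24. On ConHyp 1 the nerve and myelin list stood at -0.91, below the other Con arrays, and the glutathione transferase and antioxidant list at 0.10, above them. The heat shock chaperone list stood at 0.38 on ConNonHyp 1 and the immediate early list at 0.27 on ConHyp 2. The causes were not tested.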

How the results depend on the processing

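The 636 probe sets past the threshold became 370 without GlucoseHyp 1 and 421 without GlucoseHyp 2, and without 1 array at a time the count ran from 370 to 616. It was 255 without both Con arrays numbered 1, 169 on the Hyp arrays alone, and 0 on the NonHyp arrays alone (936 at an unadjusted p under 0.05), the s2 arrays alone (1156) or the s4 arrays alone (1563), where fewer arrays leave few degrees of freedom. Array weights raised it to 1016. Floor, filter, scaling, intensity trend and the s number as a block kept it between 490 and 792. With the replicate number as a block it was 594, of which 560 were among the 636, and with arrays of equal title word and number as a random block, chosen after seeing the data, 462. The interaction gave 0 calls under every setting run but no filter (3). Of 137 called genes named, 86 kept the call without any 1 array and 51 lost it at least once.

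Directions turned only in genes that had not passed, and in weaker probe sets. Adipoq was at 0.064 after quantile normalization. On the s2 arrays alone Fabp4 was at 0.32, Adipoq at 0.28, Lep at 1.27 and Retn at 0.24. Lep was at 0.044 on the NonHyp arrays alone, and without 1 array at a time it ran from -1.29 (without GlucoseNonHyp 2) to 0.27 (without GlucoseNonHyp 1). Other probe sets gave 0.56 and 0.28 for Vcam1, -0.66 for Serpinf1, 0.00785 for Tbxas1, 1.35 for P4hb, 0.065 for Rps24, 0.11 for Rpl19, -1.03 for Tubb2a, 0.14 for Stmn2 and 2.15 for Lep. Of 47 lists, 19 had a median beyond 0.5 in size, and 5 of their 494 values under other settings changed sign, all in glycolysis and skeletal muscle. The causes were not tested.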

Other observations

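Genes outside every list, chosen after their values were seen, extend the lower side. Ptprc, the leukocyte phosphatase CD45, read 126 and 124 on the GlucoseNonHyp arrays and lay at the floor on the GlucoseHyp arrays, against 810, 1609, 736 and 830 on Con (-3.09 ± 0.30, adjusted p = 0.000655). Ptpn6, a phosphatase that restrains immune receptors, differed by -3.09 ± 0.38 and Arhgap45 by -3.38 ± 0.55. Rac2, the Rac GTPase of blood cells, read 1147, 1305, 907 and 1243 on Glucose and 3878, 4692, 3463 and 6821 on Con (-2.0 ± 0.28). Prkcb (-1.85), Itgb7 (-1.61), Gimap4 (-1.66) and Cd53 (-1.54), all known from leukocytes, were lower on Glucose without overlap. Clu, the extracellular chaperone clusterin, read 1215, 1523, 1283 and 1175 on Glucose and 3632, 5961, 3231 and 5488 on Con (-1.78 ± 0.27).

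Other genes outside the lists were higher on Glucose. Acta2, smooth muscle actin, read 5187, 10312, 7664 and 11886 on Glucose and 3104, 3267, 2306 and 3137 on Con (1.51 ± 0.31, adjusted p = 0.0186). Mylk, myosin light chain kinase, read 10471, 11195, 7848 and 7561 on Glucose and 2037, 2750, 1996 and 3296 on Con (1.89 ± 0.26). Myl9 (1.17), Vcl (1.16), Actn4 (1.33), Tpm4 (0.97) and the laminin receptor Itga7 (2.13) were higher as well. Pgd, an enzyme of the pentose phosphate route that supplies NADPH, read 5434, 6430, 5050 and 7046 on Glucose and 1051, 1904, 1796 and 1677 on Con (1.92 ± 0.26). Blvra (1.83 ± 0.26), which makes bilirubin, and Aldh1a1 (1.56 ± 0.34), which makes retinoic acid, rose too. Of hormone signalling genes, Ghr, the growth hormone receptor, read 9460, 8357, 8679 and 8340 on Glucose and 5270, 5751, 4183 and 4269 on Con (0.85 ± 0.20), and Mc2r, the corticotropin receptor, differed by 2.15 ± 0.45. Fzd4, a Wnt receptor, was split by probe set, at 2.77 and 3.22 in the 2 that passed and 0.93 in the brightest, which did not (adjusted p = 0.22).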
